A study of Mus musculus with 8 samples.

Results

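The clustered protocadherin locus on mouse chromosome 18 was examined in an H3K9me3 ChIP-seq of colon crypts. Its members were the peaks in the table of all peaks that lay wholly between 36900000 and 37900000 on chromosome 18 of GRCm38, together with any peak elsewhere named for a *Pcdha*, *Pcdhb* or *Pcdhg* gene. This gave 78 of 53761 peaks, and 0 came from a gene name alone. Chromosome 18 held 1377 peaks in all. Of the 78 peaks, 15 had their centre in the alpha sub-cluster, 34 in the beta sub-cluster and 13 in the gamma sub-cluster, while 16 lay before or between them.

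H3K9me3 was measured in 3 ChIP libraries with Vil-Cre-mediated KO of *Smarcad1* and 3 wildtype (WT) libraries, with 1 input library for each genotype. All mice were C57BL/6 males, and the material was a whole crypt isolate of the colon. Their age and the Cre status of the controls are not given in the sources used here. In the KO, exons of *Smarcad1*, which encodes a SWI/SNF-like chromatin remodeller, were flanked by loxP sites in a line from 1 targeted embryonic stem cell clone and removed by a Cre under the *Vil1* promoter, which is active in intestinal epithelium. Other cells of a crypt isolate keep the gene. The peak set was shared by the 6 ChIP libraries, which were pooled for calling, so each peak has a value in each of them. A region with signal mainly in 1 genotype could thus become a peak through that genotype alone. A difference in the share of cells that carry the mark and in its level per cell cannot be told apart in these bulk libraries.

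The clustered protocadherins are cell adhesion proteins that give neurons their surface identity, and each neuron uses a small choice of them. In the alpha and gamma sub-clusters, each gene begins with its own variable exon, which encodes the extracellular domains and has its own promoter, and is spliced to constant exons that the whole sub-cluster shares. The beta genes have a single coding exon and no constant exons. Alpha and gamma also hold C-type genes at their ends, which are used more evenly across neurons than the others. The locus is known as a site of H3K9me3 and DNA methylation in cells that do not use these genes.

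No *Smarcad1* peak was called, so the mark gives no check of the targeted gene. The peak at *Vil1*, the gene whose promoter drives the Cre, gave log2 values of 5.82, 4.92 and 5.04 in WT and of 11.17, 10.84 and 10.84 in KO. The input there held 133 reads in WT and 1111 in KO, so at *Vil1* both the ChIP and the input libraries of the KO stood apart from WT. Of the marker lists, 2 of 10 colon epithelium genes, 1 of 4 immune genes, 0 of 9 neuron and enteric glia genes and 0 of 5 mesenchyme genes were the closest gene of a peak. These lists do not check the tissue, since H3K9me3 is not a mark of expressed genes.

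The 57 coding first exons of the 3 sub-clusters were set against the peaks first. A coding first exon here is the variable exon of an alpha or gamma gene, or the single coding exon of a beta gene, each from 2319 to 2562 bp long. At least part of 44 of the 57 lay in a peak. In the alpha sub-cluster, 11 of 14 such exons overlapped a peak and 7 lay wholly within one. In the beta sub-cluster it was 14 of 22, with 5 wholly covered. In the gamma sub-cluster it was 19 of 21, with 18 wholly covered.

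**Figure D1:**
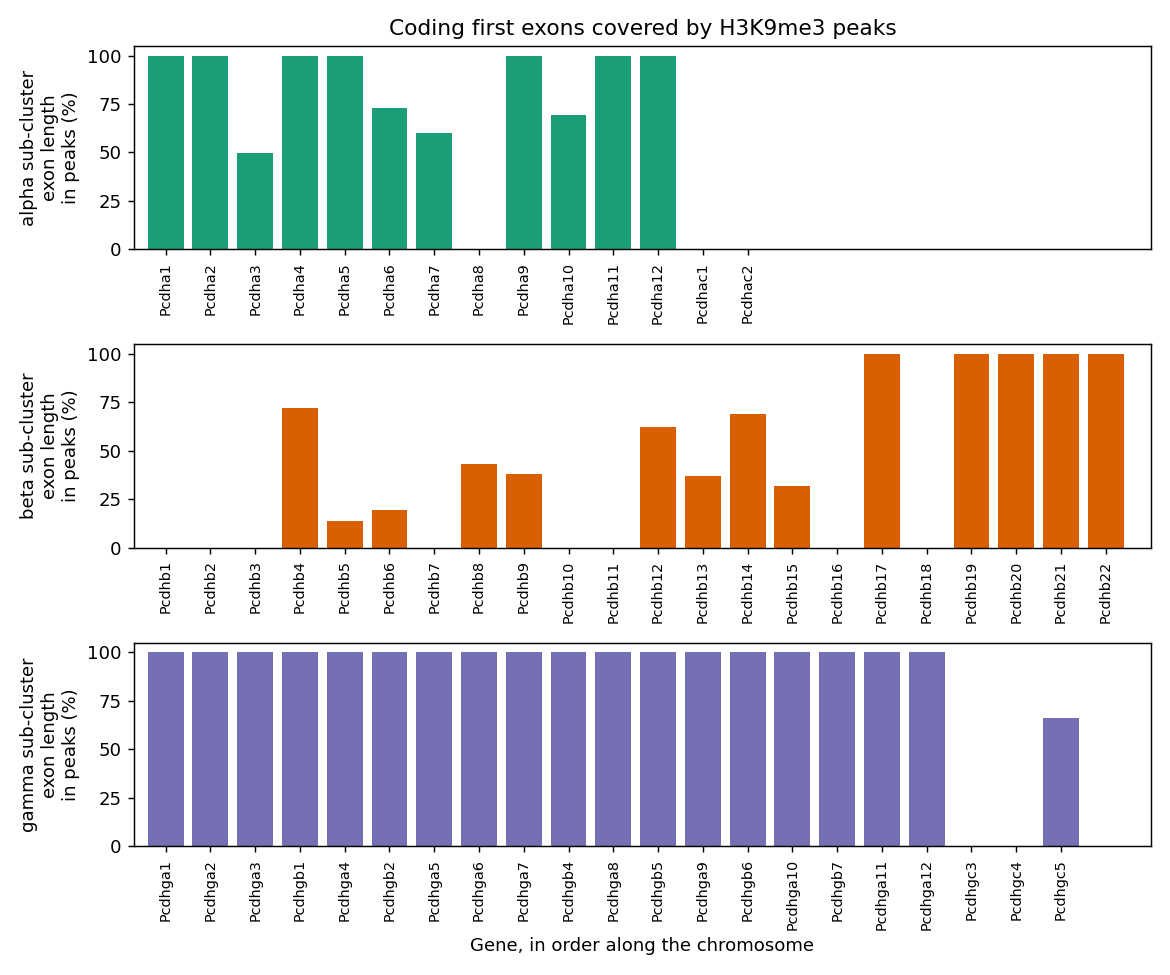
Percent of each coding first exon that lay in H3K9me3 peaks (y axis), for each gene in its order along the chromosome (x axis), in the alpha, beta and gamma sub-clusters. The 18 gamma A-type and B-type exons were covered whole, as were *Pcdhb17* and *Pcdhb19* to *Pcdhb22*, while *Pcdhac1*, *Pcdhac2*, *Pcdhgc3* and *Pcdhgc4* had no bar.

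Peaks covered the sub-clusters to different extents. They took up 13.3% of the 258.6 kb of alpha, 25.7% of the 256.4 kb of beta and 61.3% of the 180.1 kb of gamma. In alpha, 11 of the 15 peaks lay each over a single exon, from *Pcdha1* to *Pcdha12* with none at *Pcdha8*, and the other 4 lay over no coding first exon. In beta, the 8 exons without a peak were *Pcdhb1*, *Pcdhb2*, *Pcdhb3*, *Pcdhb7*, *Pcdhb10*, *Pcdhb11*, *Pcdhb16* and *Pcdhb18*, and the wholly covered exons of *Pcdhb17*, *Pcdhb19*, *Pcdhb20*, *Pcdhb21* and *Pcdhb22* lay at the end nearest to gamma. In gamma, the 12 A-type and 6 B-type coding exons were all covered whole, and long peaks ran across several genes at once.

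The C-type genes and the constant exons stood outside this pattern. Of the 5 C-type exons, only that of *Pcdhgc5* overlapped a peak, over 66.1% of its length. Peaks were called on both genotypes pooled, and whether this one would be called from WT alone is not known. *Pcdhac1*, *Pcdhac2*, *Pcdhgc3* and *Pcdhgc4* had none. The 3 constant exons shared by the 14 alpha genes and the 3 shared by the 21 coding gamma genes had 0 bp in peaks. The longest stretch of the locus without a peak was 198.0 kb, from 37039351 to 37237350, and it held *Pcdhac1*, *Pcdhac2* and the alpha constant exons. A stretch of 24.5 kb from 37794601 to 37819050 held *Pcdhgc3* and *Pcdhgc4*.

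The gene name that came with a peak did not follow this order. Each peak came with the name of its closest gene within 5 kb. Since all alpha and all gamma transcripts run on to the same constant exons, their spans overlap. All 15 alpha peaks were named *Pcdhac1* and 12 of the 13 gamma peaks *Pcdhga11*, so the exon under each peak was taken from the annotation instead. Of the 78 peaks, 19 had no gene name.

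Level was compared as H3K9me3 signal per kb, meaning the matched read count of a peak (2 to the power of the deposited log2 value) divided by its width. Summed over the peaks of a sub-cluster, the gamma signal was 22.4, 21.8 and 21.9 matched reads per kb in the WT libraries and 23.3, 22.3 and 23.3 in the KO libraries. The beta signal was 16.9, 15.5 and 16.1 in WT and 15.7, 15.7 and 15.9 in KO. The alpha signal was 15.1, 13.3 and 14.3 in WT and 17.6, 16.9 and 16.7 in KO. Gamma was thus above alpha and beta in all 6 libraries, with no overlap of their ranges. Alpha lay below beta in each WT library and above it in each KO library, and the alpha libraries of the genotypes did not overlap. Over all 53761 peaks the same sum was 17.3 in each library, as matching fixes it.

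**Figure D2:**
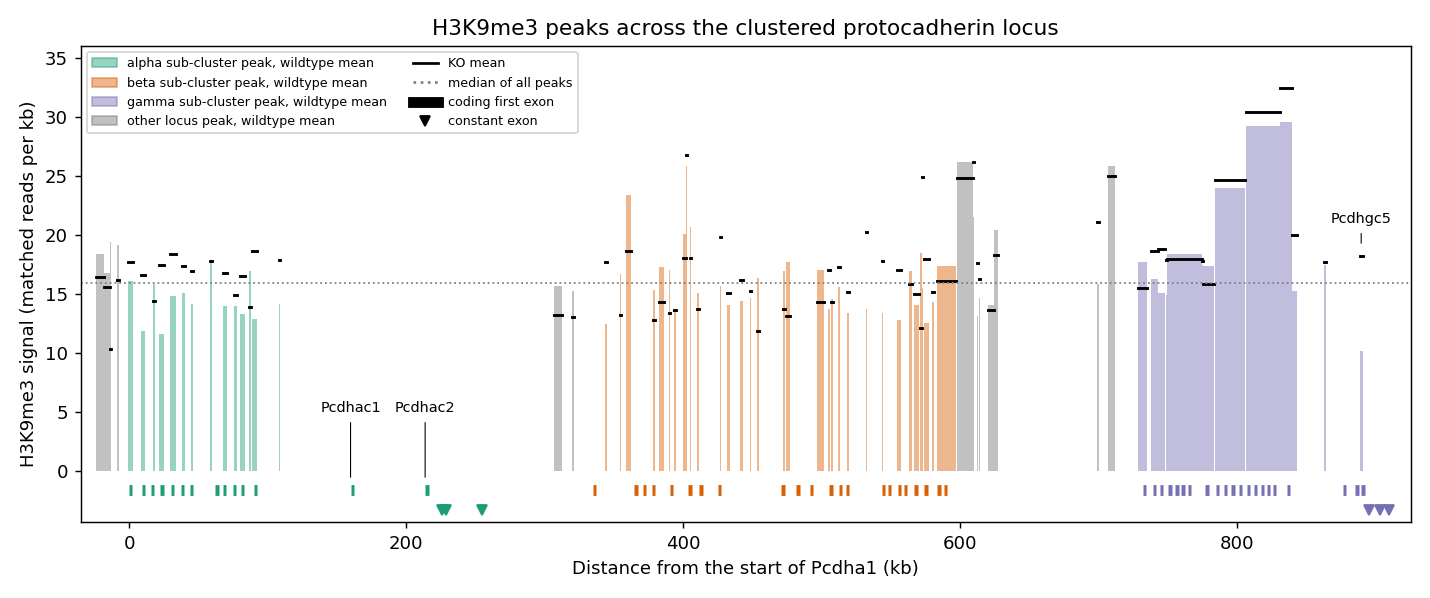
H3K9me3 signal of the 78 peaks in matched reads per kb (y axis) by distance from the start of *Pcdha1* in kb (x axis). Bars give the mean of 3 WT libraries (grey outside the sub-clusters), black lines the mean of 3 KO libraries, ticks the coding first exons and triangles the constant exons. The highest signal lay over *Pcdhga9* to *Pcdhga12*, at 29.2 and 29.6 in WT against a median of 15.9 over all peaks (dotted line), and the stretch with *Pcdhac1* and *Pcdhac2* held no peak.

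The 2 peaks with the highest signal lay in the second part of the gamma sub-cluster. There, 3 adjacent peaks, together 55.7 kb wide, covered the 10 coding exons from *Pcdhga7* to *Pcdhga12*. The widest of them, from 37736401 to 37760850 (24450 bp), covered *Pcdhga9*, *Pcdhgb6*, *Pcdhga10*, *Pcdhgb7* and *Pcdhga11* with 29.2 matched reads per kb in WT and 30.4 in KO. The peak over *Pcdhga12*, from 37761001 to 37770000, reached 29.6 ± 1.9 in WT and 32.4 ± 2.1 in KO (SD, n = 3). Both lay above the 99th percentile of all peaks, and a window at the start of the pseudogene *Pcdhgb8* lay in the latter. The peak over *Pcdhga7*, *Pcdhgb4*, *Pcdhga8* and *Pcdhgb5* reached 23.9 in WT and 24.7 in KO. By contrast, the first 5 gamma peaks over an exon, from *Pcdhga1* to *Pcdhga6*, lay between 15.1 and 18.4 in WT.

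Between beta and gamma lay 2 more dense peaks that covered no protocadherin exon. One, from 37528051 to 37539300, had 26.2 matched reads per kb in WT and 24.9 in KO. The other, from 37637251 to 37642050, lay over *Slc25a2*, a mitochondrial ornithine carrier gene inside the locus, with 25.85 in WT and 24.97 in KO. The other 10 genes on the list of genes in or beside the interval, such as *Taf7*, *Diaph1* and *Hdac3*, were the closest gene of no peak. The highest beta values came from a peak downstream of *Pcdhb2* (23.4 in WT, 18.7 in KO) and from narrow ones such as a 300 bp peak downstream of *Pcdhb6* (25.8 in WT, 26.8 in KO) with 5 to 11 reads in each ChIP library.

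The sub-clusters were also set against input. Each peak's log2 ChIP minus input was taken relative to the median peak of the same genotype, and the median gamma peak was 1.10 times the median of all peaks in WT and 1.31 times in KO. For alpha these values were 0.94 and 1.03, and for beta 0.934 and 1.01. On the log2 scale, the SD between ChIP libraries was 0.21 in WT and 0.09 in KO for alpha. It was 0.18 and 0.09 for beta, and 0.02 and 0.16 for gamma. In each sub-cluster the WT and KO libraries overlapped. The highest gamma value was that of the *Pcdhga9* to *Pcdhga11* peak, with log2 values of 1.02 in WT and 0.99 in KO. The highest alpha value was at 36988501 to 36989850, between *Pcdha7* and *Pcdha8*, with 0.96 in WT and 0.37 in KO, and its input held 7 and 10 reads. By the mean of both genotypes, the highest beta value was at a 450 bp peak, 37386301 to 37386750, with 2.09 in WT and -0.60 in KO, where the input held 1 read in WT and 7 in KO. With 1 input per genotype, the spread of these values between inputs is not known.

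The peaks over exons differed in sequence from those beside them. Alpha peaks over an exon held 3.64 to 4.93 CpG per 100 bp, beta ones 1.33 to 4.00 and gamma ones 1.29 to 3.34, against a median of 0.667 over all peaks. Soft-masked repeats made up a median of 6.63% of the 34 peaks over an exon and 35.2% of the other 44, against 37.8% over all peaks. The exons of 1 sub-cluster resemble each other, which bears on which reads could be placed. Up to 28.0% of the 50-base words of an exon occurred elsewhere in the locus (*Pcdha6*), and up to 13.6% of the 100-base words (*Pcdha11*). For gamma the highest share of 100-base words was 11.3% (*Pcdhgb2*), and for beta 3.78% (*Pcdhb6*). Reads with a mapping quality under 20 were dropped before peaks were called, and how many of them came from these exons is not known here.

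KO was compared with WT at every peak with limma, to ask where H3K9me3 differed without Smarcad1. Of all 53761 peaks 1.66% passed a Benjamini-Hochberg adjusted p under 0.05, 0.796% as higher in KO and 0.863% as lower. In the locus 1 of 78 peaks passed, higher in KO, and 0 passed as lower. At an unadjusted p under 0.05, 9 peaks were higher in KO and 2 lower. Among all peaks 4.52% and 6.06% were so. The 3 KO libraries lay above the 3 WT libraries at 14 of the 78 peaks and below them at 5, where the background over all peaks was 7.2% and 8.42%. KO was higher at 56.4% of the locus peaks and at 50.3% of all peaks. The median log2 difference was 0.04 in the locus and 0.00 over all peaks.

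The peak that passed lay over *Pcdhgc5*, the C-type gene nearest to the gamma constant exons, from 37819051 to 37821300. It covered the start of the gene. Its log2 values were 4.35, 4.49 and 4.70 in WT and 5.37, 5.00 and 5.64 in KO. All KO libraries were above all WT libraries. The difference was 0.82 ± 0.22 on the log2 scale (SE, limma adjusted p = 0.0386, n = 3 per genotype), or 10.2 ± 1.3 against 18.2 ± 4.0 matched reads per kb (SD). The reads behind these values were about 18, 25 and 30 in WT and 34, 32 and 51 in KO, while the inputs held 24 reads in WT and 22 in KO. The WT level was the lowest of all peaks over a gamma exon, and the KO level was near that of *Pcdhga2* and *Pcdhga3*. Relative to the median peak of each genotype, log2 ChIP over input at *Pcdhgc5* was -0.86 in WT and -0.01 in KO. The call was lost when WT replicate 1 or 2 or KO replicate 1 or 3 was left out (adjusted p = 0.17, 0.119, 0.115 and 0.252), and with a constant variance prior in limma (adjusted p = 0.353).

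**Figure D3:**
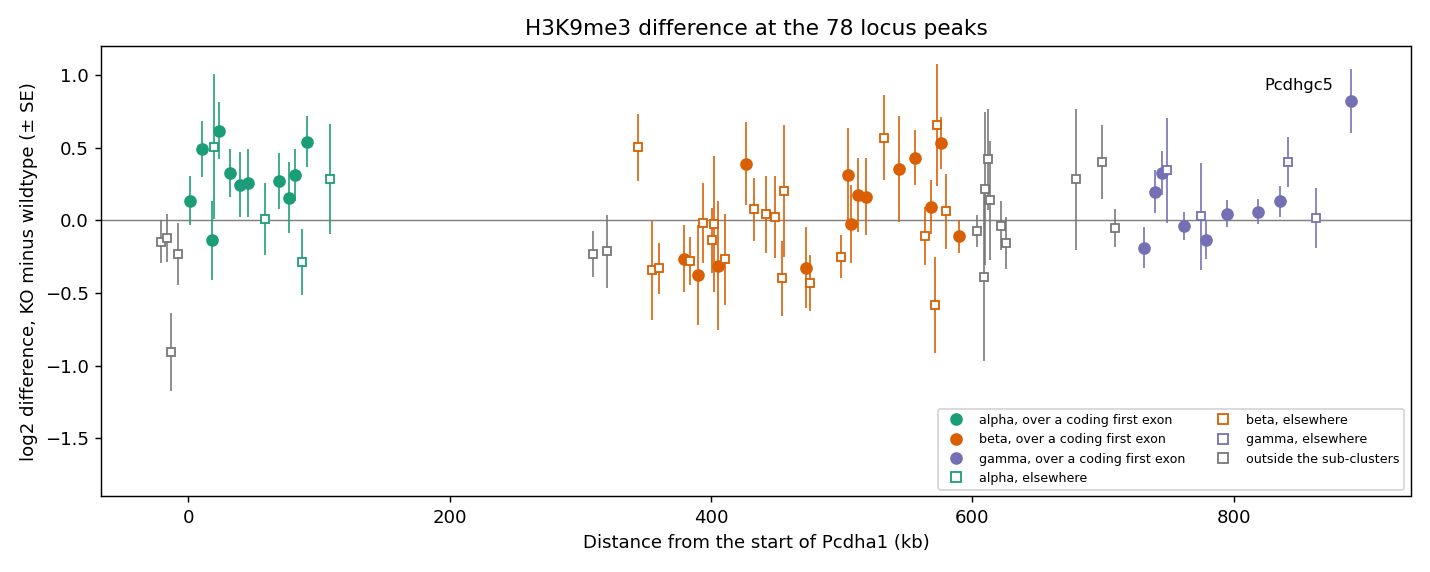
KO minus WT log2 difference in H3K9me3 (y axis, ± SE from limma) at the 78 locus peaks by distance from the start of *Pcdha1* in kb (x axis). Filled circles are peaks over a coding first exon and open squares the others. Of 11 alpha exon peaks 10 lay above 0, where 50.3% of all peaks did. The *Pcdhgc5* peak at the right was the only one that passed the test.

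Most alpha peaks were higher in KO, though none passed the test over all peaks. KO was higher at 13 of 15 alpha peaks and at 10 of the 11 over an exon, against 50.3% of all peaks. At these 11 the differences ran from -0.14 at *Pcdha3* to 0.62 at *Pcdha4* with a median of 0.27. Peaks were called on both genotypes pooled, and whether each of these 11 would be called from WT alone is not known. The KO libraries did not overlap the WT libraries at 6 of these 11 (54.5%), all with KO above. These were *Pcdha2*, *Pcdha4*, *Pcdha5*, *Pcdha7*, *Pcdha11* and *Pcdha12*. Over all peaks KO lay above without overlap at 7.2%, and at 38.6% of wide CpG-dense peaks at other loci, described below. Averaged over the 11 alpha exon peaks, the log2 value was 5.27, 5.09 and 5.15 in WT and 5.47, 5.48 and 5.44 in KO. KO was thus higher in all 3 libraries. The level of these peaks ran from 11.6 to 16.1 matched reads per kb in WT and from 14.4 to 18.7 in KO.

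The largest alpha differences were at *Pcdha4* and *Pcdha12*. At *Pcdha4* the log2 values were 5.30, 4.70 and 5.48 in WT and 5.94, 5.64 and 5.75 in KO. The difference of 0.62 ± 0.20 (SE) had an adjusted p of 0.118, and without WT replicate 2, the lowest WT library, it was 0.39 (adjusted p = 0.609). At *Pcdha12*, the last gene before the peak-free stretch, they were 5.85, 5.35 and 5.54 in WT and 5.89, 6.27 and 6.20 in KO. Here too no KO library fell below a WT library, and the difference was 0.54 ± 0.17 (SE, adjusted p = 0.122). The widest alpha peak, over *Pcdha5* (3900 bp), gave 5.84 ± 0.21 in WT and 6.17 ± 0.02 in KO (SD, n = 3). By the mean of all 6 libraries, the signal per kb among those over an exon was highest at *Pcdha1*, with 16.1 matched reads per kb in WT and 17.7 in KO, and its genotypes overlapped. In KO *Pcdha12*, at 18.7, and *Pcdha5*, at 18.4, were above it. *Pcdha3* was the one exon peak with a lower mean in KO, at 4.39 ± 0.48 against 4.52 ± 0.44.

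The input moved in the same direction at these peaks. KO minus WT input had a median log2 difference of 0.17 over the 15 alpha peaks, against -0.09 over all peaks, and rested on 1 library per genotype. With the unscaled input taken off, the median alpha difference was 0.21 in place of 0.27. *Pcdha1* went from 0.14 to -0.43, *Pcdha4* from 0.62 to 0.45 and *Pcdha12* from 0.54 to 0.23. The inputs were not scaled for depth, so the offset of -0.09 over all peaks raises each value with the input taken off. Centring on the median peak of each genotype allows for depth. The alpha median of log2 ChIP over input was then -0.09 for WT and 0.04 for KO. Its SD between ChIP libraries was 0.21 in WT and 0.09 in KO. What part the input had in the result was not tested.

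**Figure D4:**
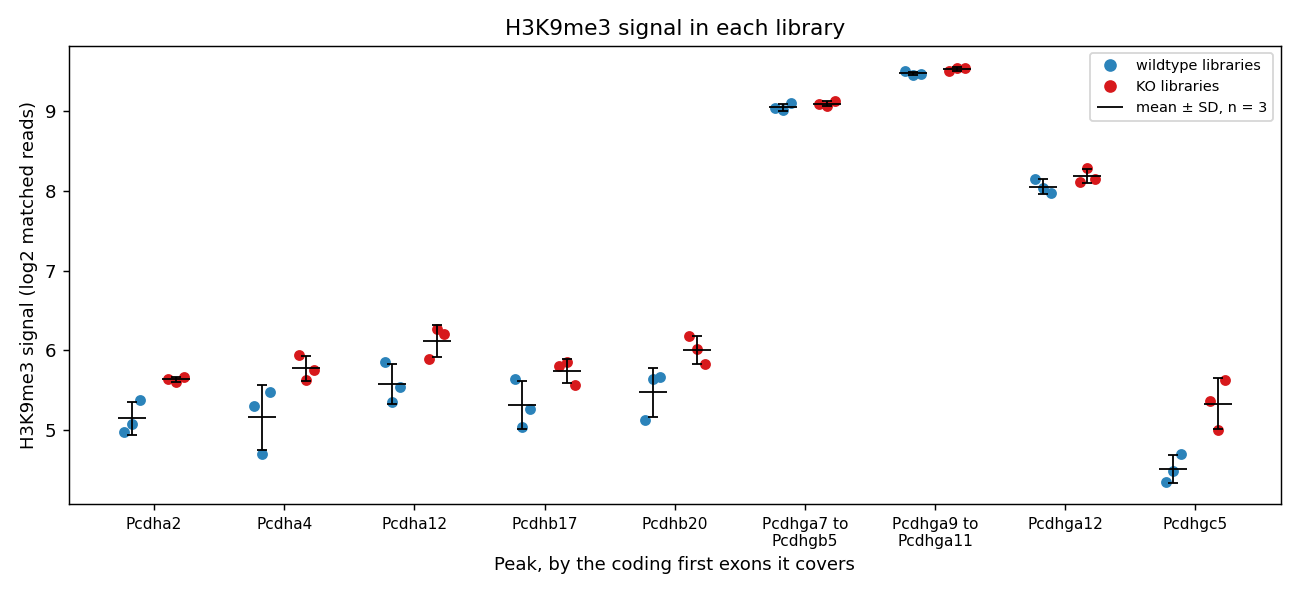
H3K9me3 signal as log2 matched reads (y axis) in each of 3 WT and 3 KO libraries at 9 peaks named by the exons they cover (x axis), with mean ± SD. The 9 peaks were chosen after their values were seen, and none of them had a lower mean in KO. Alpha exon peaks whose libraries overlapped are not shown. The KO points lay above all WT points at *Pcdha2*, *Pcdha4*, *Pcdha12*, *Pcdhb20* and *Pcdhgc5*, by less than 0.1 in the mean at *Pcdhga9* to *Pcdhga11*, and among them at *Pcdhb17*, *Pcdhga7* to *Pcdhgb5* and *Pcdhga12*.

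The beta sub-cluster was split. KO was higher at 16 of 34 peaks, with a median difference of -0.02. In each direction 3 peaks (8.82%) were without overlap, near the 7.2% (KO above) and 8.42% (KO below) of all peaks. Before *Pcdhb12*, 6 of 20 peaks were higher in KO with a median of -0.26, and from *Pcdhb12* on 10 of 14 were, with a median of 0.17. This division was made after the values were seen and was not tested. *Pcdhb20* gave the largest difference of the beta exons, with log2 values of 5.12, 5.64 and 5.67 in WT and 6.18, 6.02 and 5.83 in KO, a difference of 0.53 ± 0.18 (SE, adjusted p = 0.16). *Pcdhb17*, close by, gave 5.64, 5.04 and 5.26 in WT and 5.81, 5.85 and 5.57 in KO. It differed by 0.43 ± 0.19 (SE, adjusted p = 0.367), and here the libraries overlapped.

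The beta extremes by rank lay outside the exons. Beside *Pcdhb19*, a 900 bp peak at 37501501 to 37502400 had a difference of -0.58 ± 0.33 and the next one, a 450 bp peak at 37503001 to 37503450, of 0.66 ± 0.42 (SE), with 5 to 12 reads in each library at the latter. The peak upstream of *Pcdhb9*, at 37404601 to 37407300, had 5.42, 5.56 and 5.75 in WT and 4.97, 5.16 and 5.30 in KO. All KO libraries were below WT, with a difference of -0.43 ± 0.19 (adjusted p = 0.382). A peak at 37461901 to 37462950 with no gene within 5 kb gave 0.57 ± 0.29 (adjusted p = 0.501). The widest beta peak, 14250 bp over *Pcdhb21* and *Pcdhb22*, was at 7.95 ± 0.02 in WT and 7.84 ± 0.14 in KO.

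In gamma, the broad peaks with the most signal had small differences. The *Pcdhga9* to *Pcdhga11* peak gave 9.50, 9.46 and 9.48 in WT and 9.51, 9.55 and 9.55 in KO. These did not overlap, yet differed by only 0.06 ± 0.09 (SE, adjusted p = 0.881), since limma takes the spread of other peaks of that level into account. The *Pcdhga7* to *Pcdhgb5* peak differed by 0.04 ± 0.09 and the *Pcdhga12* peak by 0.13 ± 0.11. The widest gamma peak, 24600 bp over *Pcdhgb1*, *Pcdhga4*, *Pcdhgb2* and *Pcdhga5*, differed by -0.04 ± 0.10. At *Pcdhga1* and *Pcdhga6* the differences were -0.19 ± 0.14 and -0.14 ± 0.13, the largest decreases in gamma. Beyond *Pcdhga12*, a peak at 37770001 to 37773300 over no exon gave 5.85, 5.72 and 5.35 in WT and 6.20, 6.04 and 5.88 in KO, with no overlap, and differed by 0.40 ± 0.17 (adjusted p = 0.36). KO was higher at 10 of the 13 gamma peaks, with a median of 0.06.

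Outside the sub-clusters KO was lower at 11 of 16 peaks. It was lower at all 4 peaks before *Pcdha1* and at both between alpha and beta. The 10 peaks between beta and gamma were even, with 5 higher and 5 lower in KO and a median of 0.05. The largest decrease in the locus lay before *Pcdha1*, at 36916201 to 36917550 downstream of the predicted gene *Gm6756*. It had 21.7, 17.9 and 18.6 matched reads per kb in WT and 9.69, 9.83 and 11.5 in KO. Its log2 difference of -0.91 ± 0.27 had an adjusted p of 0.0694 and passed, at 0.0452, when peaks averaging under 4 on the log2 scale were left out. The 1 peak that crosses the first bound of the interval, 36895651 to 36906300, differed by -0.28 ± 0.11, and the first peak inside it by -0.15 ± 0.15. The 26 chromosome 18 peaks within 1 Mb of the interval were lower in KO at 22 places, with a median of -0.28, and 0 of them passed.

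**Figure D5:**
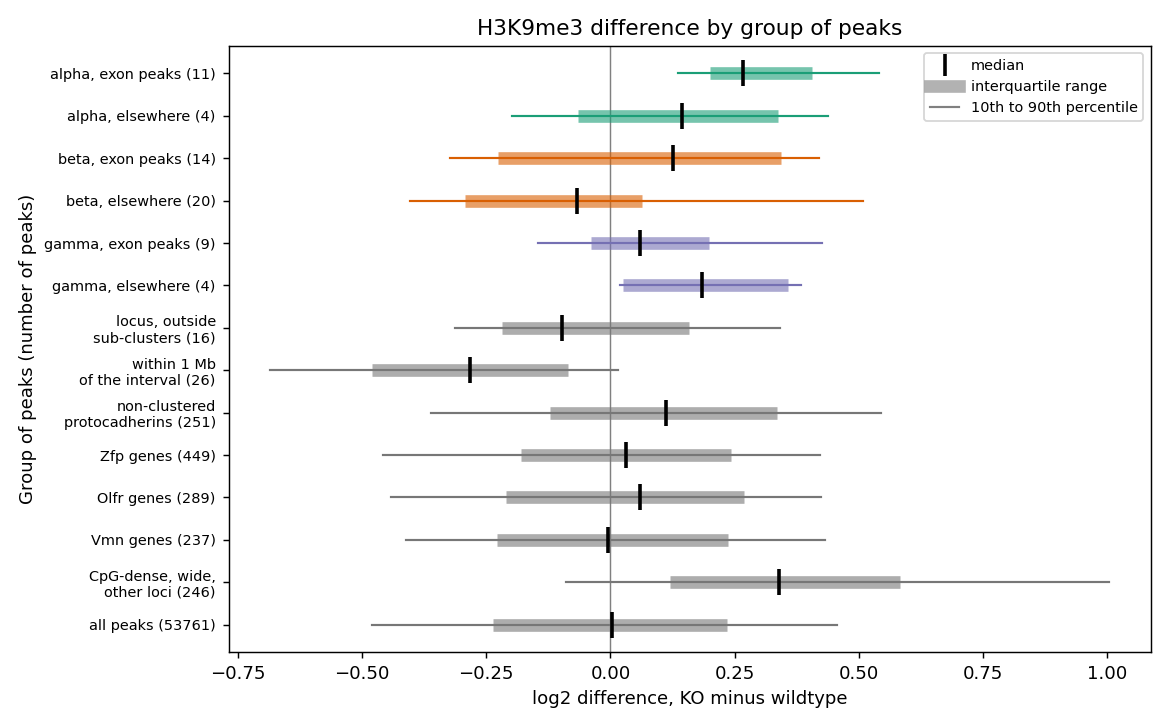
KO minus WT log2 difference in H3K9me3 (x axis) for groups of peaks (y axis, with the number of peaks), as median (black mark), interquartile range (thick bar) and 10th to 90th percentile (line). The alpha exon peaks had a median of 0.27 and the peaks within 1 Mb of the locus one of -0.28, and wide CpG-dense peaks at other loci had a median of 0.34.

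Other gene families with many copies were set beside the locus by the authors' closest gene. Peaks at *Zfp* genes (zinc finger factors, 449 peaks) had a median difference of 0.03, those at *Olfr* genes (olfactory receptors, 289 peaks) of 0.06 and those at *Vmn* genes (vomeronasal receptors, 237 peaks) of -0.01. Of these, 11 *Zfp* peaks rose (2.45%) and 12 fell (2.67%). At *Olfr* genes 0 peaks rose and 2 fell (0.692%), and 0 *Vmn* peaks passed. Over all peaks 0.796% rose and 0.863% fell. At an unadjusted p under 0.05, 8 *Olfr* peaks were higher and 14 lower in KO, and 4 and 9 *Vmn* peaks, against 4.52% and 6.06% over all peaks. The non-clustered protocadherins, adhesion genes at other places in the genome, had 251 peaks at 8 of 12 genes, with a median of 0.11, and 163 were higher in KO. Here 2 peaks rose, which is 0.797% of the 251, close to the 0.796% over all peaks. One lay at *Pcdh8*, with 5.15 ± 0.55 in WT and 6.26 ± 0.35 in KO (SD, n = 3, adjusted p = 0.000317), and one at *Pcdh9*, with 3.03 ± 0.47 and 4.36 ± 0.10 (adjusted p = 0.0185).

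Since the exon peaks are rich in CpG, peaks of like composition were also described, a choice made after seeing the data. Outside the locus, 246 peaks held at least 3 CpG per 100 bp and were at least 1500 bp wide. Their median difference was 0.34, and 208 of them were higher in KO. At an adjusted p under 0.05, 47 rose (19.1%) and 3 fell (1.22%), against 0.796% and 0.863% over all peaks. In the locus 15 peaks were of this kind, with a median of 0.26 and 13 higher in KO. The KO libraries lay above WT without overlap at 6 of these 15 (40%) and at 95 of the 246 (38.6%). The *Pcdhgc5* peak, with 2.18 CpG per 100 bp, was not of this kind. The median of these locus peaks was thus below that of the CpG-dense, wide peaks elsewhere, a difference that was not tested. What part CpG content had in the alpha differences was not tested.

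Genes for proteins known to act on the clusters were followed by list, among them the insulator protein CTCF, cohesin, the SETDB1 methyltransferase with its partners and the DNA methyltransferases. Only 6 of these 26 genes were the closest gene of a peak, with 10 peaks in all. Of these 10, 0 rose and 3 fell (30%), where 0.796% and 0.863% did so over all peaks. The list was chosen with earlier results of these data known, and peaks of 1 gene are not independent, so this share was not tested. 2 of the 3 lay at *Smchd1*, whose product is a repressor known to act on the clustered protocadherins, and the one with the larger difference, 1800 bp wide, went from 5.17 ± 0.23 in WT to 3.82 ± 0.34 in KO (SD, n = 3, adjusted p = 0.000473). A further *Smchd1* peak did not pass, with a difference of -0.29 ± 0.20 (SE, adjusted p = 0.672). The last of the 3 that fell lay at *Cbx3*, which encodes the H3K9me3 reader HP1 gamma, with 5.47 ± 0.16 in WT and 4.51 ± 0.37 in KO (SD, adjusted p = 0.00701). *Ctcf*, *Rad21*, *Setdb1*, *Trim28* and the DNA methyltransferase genes had no peak.

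Depth limits all of these values. The median locus peak held 25.5 to 31 reads per ChIP library, against 14 to 20 over all peaks, and 18 to 18.5 reads in the inputs. The SE of the log2 difference ran from 0.087 at the broad gamma peaks to 0.582 at the narrowest, with a median of 0.228, so a difference of the size seen at the alpha exons could be missed at most single peaks. The study calls the libraries biological replicates, so the p-values measure the spread between them, and the labels do not say which animals each came from.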

How the data were processed

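The authors trimmed the reads with Trim Galore (0.6.1 per the submitters' processing notes), mapped them to GRCm38 with Bowtie2 2.3.2, dropped duplicates and reads with a mapping quality under 20, and ran MACS on the pooled ChIP libraries against both inputs. The deposited ChIP values are log2 counts of the reads in a peak, brought by the authors to one common distribution. This removes differences in depth and any change common to most peaks. The deposited input values are log2 of unscaled whole read counts. The labels give single reads of 50 bp and the methods paired ones of 100 bp. The authors' table of edgeR calls (p-values, fold changes) was not used.

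KO and WT were compared on all 53761 peaks with limma 3.58.1 in R 4.3.3 (genotype as the only factor, variance prior following the mean, two-sided, Benjamini-Hochberg), as the table holds no raw counts. The test was tested on simulated data. Sub-clusters and exons came from the RefSeq annotation of GRCm38.p6, and sequence measures from the same genome. No sequence is printed. Reads behind a ChIP value were recovered from its rank among the distinct values of its library, up to 100.

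Members and gene lists were chosen with earlier results of these data known. The peaks named are, per sub-cluster, the 3 with the highest signal per kb, the widest, the 2 largest increases and 2 largest decreases and the highest over input, with every peak past the threshold and every peak over a C-type gene or constant exon. Other peaks are named for the exon they cover and were chosen after their values were seen.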

Additional observations from a re-analysis of the deposited data

How the results depend on the processing

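The count of 1 changed peak became 0 with a constant variance prior (127 peaks called in all, 892 in the reported fit) and at an adjusted p under 0.01 (554 in all), 2 when peaks averaging under 4 on the log2 scale were left out, and 15 with the input subtracted. That last setting called 15873 of all peaks, because 1 input is subtracted from all 3 libraries of a genotype and its noise is not replicated. Leaving out single replicates gave 0 to 1. Centring, quantile normalization and partial overlap with the interval left the count at 1, as did the replicate number as a block (1 peak, 872 in all). Same-numbered libraries did not deviate together (correlations -0.0013, 0.0191 and 0.0164), so the numbers were not taken to pair them.

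With the input subtracted the median log2 difference of alpha became 0.21, that of beta 0.064 and that of gamma 0.11. The inputs were not scaled for depth, and their median KO minus WT difference over all peaks was -0.09. This offset raises all 3 values, so those of beta and gamma are not shifts particular to them. With depth allowed for, the alpha value lies below 0.21. Centred on the median peak of each genotype, the alpha median of log2 ChIP over input was -0.09 in WT and 0.04 in KO. The mean in place of the median gave 0.15 for gamma. The other alternatives moved the 3 medians by less than the spread between libraries. Log2 ChIP over input, with at least 10 input reads, became 0.23 for alpha and 0.15 for beta in KO, and 0.31 in WT and 0.57 in KO for gamma. For gamma in WT a ratio of sums gave 0.46, and leaving out a replicate 0.11 to 0.20.

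Of the named peaks, none that passed the test changed sign. Subtracting the unscaled input turned the sign at *Pcdha1* (-0.43), at 36949351 (-0.72), 36988501 (-0.51), 37016551 (0.30), 37386301 (-2.60) and 37404601 (0.21). It also did so at *Pcdhb21* and *Pcdhb22* (0.078), at *Pcdhgb1* to *Pcdhga5* (0.019) and at *Pcdhga6* (0.11). Relative to the median peak of each genotype, ChIP over input at *Pcdhb21* and *Pcdhb22* was 0.33 in WT and 0.31 in KO. At *Pcdhgb1* to *Pcdhga5* it was 0.38 and 0.31, so with depth allowed for the sign did not turn at these 2 peaks. Leaving out a replicate gave -0.38 to 0.14 at *Pcdha3*, -0.14 to 1.10 at 36949351, -0.15 to 0.10 at 36988501, -0.32 to 0.35 at 37332451, -0.070 to 0.59 at 37386301 and -0.11 to 0.049 at *Pcdhgb1* to *Pcdhga5*. The cause was not tested.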
